A study of Homo sapiens with 4 samples.

Results

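*ZFR*, the host gene of the circular RNA circZFR, was examined together with 3 genes whose proteins share its double-stranded RNA-binding machinery, *ILF2*, *STRBP* and *ADAR*. These 4 genes were chosen by symbol, and all 4 were found among the 40205 genes listed in every library. The comparison asked how the host gene and its partners stood 24 h after transfection of human lung cancer cells with siRNA against circZFR (si-circZFR 1 and si-circZFR 2) or with negative control (NC 1 and NC 2), 2 libraries in each group. The study design and the article call the cells A549, a lung adenocarcinoma line, whereas the sample labels call them H1299, another lung cancer line. All 4 libraries held the aldo-keto reductase *AKR1B10*, for which A549 is known, at 1271 to 1747 RPKM. RPKM is the number of reads on a gene divided by its length and by the mapped reads of the library, so levels of different genes can be set side by side. Nothing says whether the 2 libraries of a group came from separate cultures, so the p-values below measure the spread between these libraries only. Where 4 values of a gene follow each other, the NC libraries come before the si-circZFR libraries, each by replicate number.

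ZFR is a nuclear zinc finger protein that carries a DZF domain, the fold through which its family pairs. NF45, encoded by *ILF2*, pairs through the same fold with ZFR or with SPNR, the latter encoded by *STRBP*. SPNR and ADAR1, the product of *ADAR*, bind double-stranded RNA, and ADAR1 converts adenosine to inosine in it. Such proteins meet on inverted repeats in pre-mRNA, where they are known to affect splicing, editing and back-splicing.

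The siRNA listed by the study is shown first because its bases come from 2 separate exons of *ZFR*. It was matched to the main *ZFR* transcript of GENCODE, 4717 bases in 20 exons on the minus strand of chr5:32354350-32444740 (GRCh38). In the sense strand without its overhang, lower case marks the end of exon 17 and capitals the start of exon 13, and the same marking is used for 15 bases on each side of the junction in the circle. The 2 linear junctions are printed with the upstream exon in lower case and the downstream exon in capitals.
siRNA sense strand: ccaagctggCCCTTACGTC
circle, exon 17 joined to exon 13: gattttccaagctggCCCTTACGTCGTCCT
linear, exon 12 joined to exon 13: cctcaggggcctgcaCCCTTACGTCGTCCT
linear, exon 17 joined to exon 18: gattttccaagctggGCTATGGAGTTACTA
guide strand, seed (bases 2 to 8) in capitals: gACGUAAGggccagcuugg

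The first 9 bases of the sense strand lay at chr5:32379115-32379123 in exon 17, and its other 10 bases at chr5:32388665-32388674 in exon 13. Both sites are coding sequence. The circle contained the whole site without a mismatch, whereas the longest run shared with the linear transcript was 10 bases. For the guide strand, the best ungapped position in linear *ZFR* had 7 mismatches, and the same number was found for *ILF2*, *STRBP* and *ADAR*. Of 20046 coding transcripts, 71.5% had a position with 7 or fewer mismatches, 4 transcripts had one with 3, and no transcript had fewer. CTTACGT, the mRNA match of the guide's seed, was searched on the transcript strand. It occurred once in the coding part of *ZFR*, within the exon 13 bases printed above, and nowhere in the transcripts of *ILF2*, *STRBP* and *ADAR*. It was present in the coding part of 1.84% of all transcripts and in 2.26% of all 3′UTRs. The corresponding match of the sense strand's bases 2 to 8 occurred once in the coding part of *ZFR*, of *ADAR* and in the 3′UTR of *STRBP*. That match was absent from *ILF2* and present in 13.7% of all coding parts and 12.5% of all 3′UTRs.

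The circle's exons, 13 to 17, add up to 693 bases, or 14.7% of the linear transcript, and code for residues 715 to 945 of the 1074 residues of ZFR. Each gene has a single deposited value, to which both the circle and the linear transcript can contribute. By RT-PCR, the article found that the siRNA left *ZFR* without a detectable change in A549 and another lung adenocarcinoma line. The RPKM values of *ZFR* given below differ from that result, and why the measures differ was not tested. The *ZFR* primers that the study lists for RT-PCR are shown because they read another part of the gene than the circle. The forward primer lies in exon 2 at chr5:32444282-32444300 and the reverse primer in exon 3 at chr5:32420071-32420092, both outside exons 13 to 17.
ZFR forward primer: aatggcgaccggcaactac
ZFR reverse primer: tgagaataggctacacccgaag

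**Figure D1:**
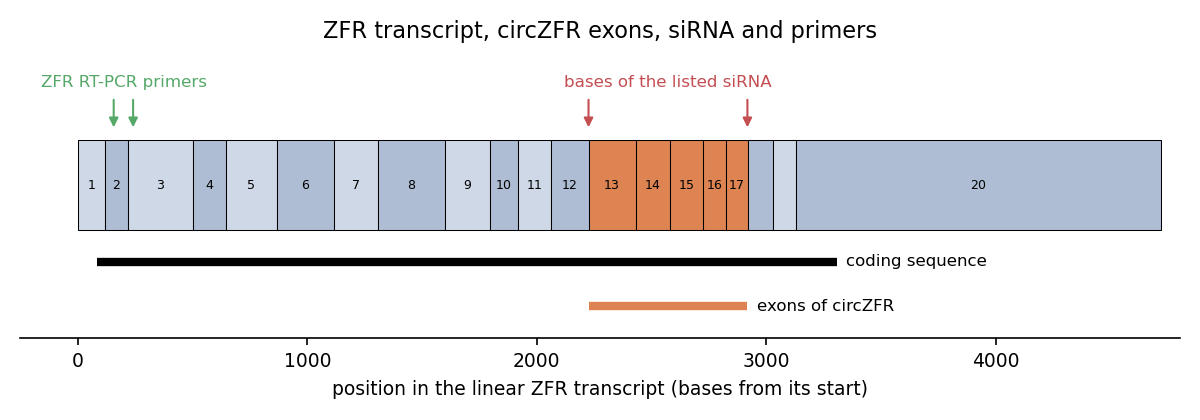
The main linear *ZFR* transcript drawn to scale in bases from its start, with exon numbers in boxes (exons 18 and 19 are not numbered), the coding sequence as a black bar and the circZFR exons 13 to 17 in orange. Red arrows mark the 2 exon ends that hold the bases of the listed siRNA, 693 bases apart, and green arrows mark the *ZFR* primers in exons 2 and 3.

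After transfection with si-circZFR *ZFR* fell, while no difference of *ILF2*, *STRBP* or *ADAR* passed the test. Recovered from the RPKM values, the reads on *ZFR* numbered 1437 and 1740 in the NC libraries against 284 and 267 after si-circZFR. As deposited, its RPKM was 25.5 in NC 1, 28.8 in NC 2, 5.35 in si-circZFR 1 and 5.13 in si-circZFR 2. Both si-circZFR libraries lay far below both NC libraries. By any margin, however small, the same order was found for 28.9% of the 13885 genes tested. After scaling between libraries by trimmed means, NC had a *ZFR* level of 29.1 ± 4.72 (SD, n = 2), and si-circZFR had 4.91 ± 0.422 (SD, n = 2), which was 83.2% lower. In bulk RNA, fewer cells with the transcript and less transcript per cell cannot be told apart. The log2 fold change (log2FC), taken on log2(scaled RPKM + 1), was -2.34 (standard error 0.18, 95% confidence interval -2.79 to -1.90, FDR = 0.0481 by limma with Benjamini-Hochberg adjustment). A gene passed at FDR under 0.05 with an absolute log2FC over 1, as 8 genes did (0.0576% of those tested), 4 of them lower (0.0288%). Of the 13885 genes, 9 had a lower log2FC than *ZFR* and 3 had a smaller p. Taken library by library, the 4 possible differences between the groups ran from -2.58 to -2.11 on the log2 scale.

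The fall of *ZFR* was larger than its differences between replicates, 0.32 within NC and -0.15 within si-circZFR on the log2 scale, but its FDR was close to the threshold. Without NC 2 its log2FC was -2.19 (FDR = 0.144 by limma), and over all alternatives the FDR ran from 0.00559 to 0.227. The exact two-sided permutation test over the 4 libraries gave p = 0.333, the smallest p that 2 libraries against 2 allow. Counting error was 2.40% to 2.64% of the *ZFR* reads in NC and 5.93% to 6.12% in si-circZFR, against a spread between replicates of 16.2% and 8.60% of the mean. Each spread rests on 1 difference between 2 libraries.

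**Figure D2:**
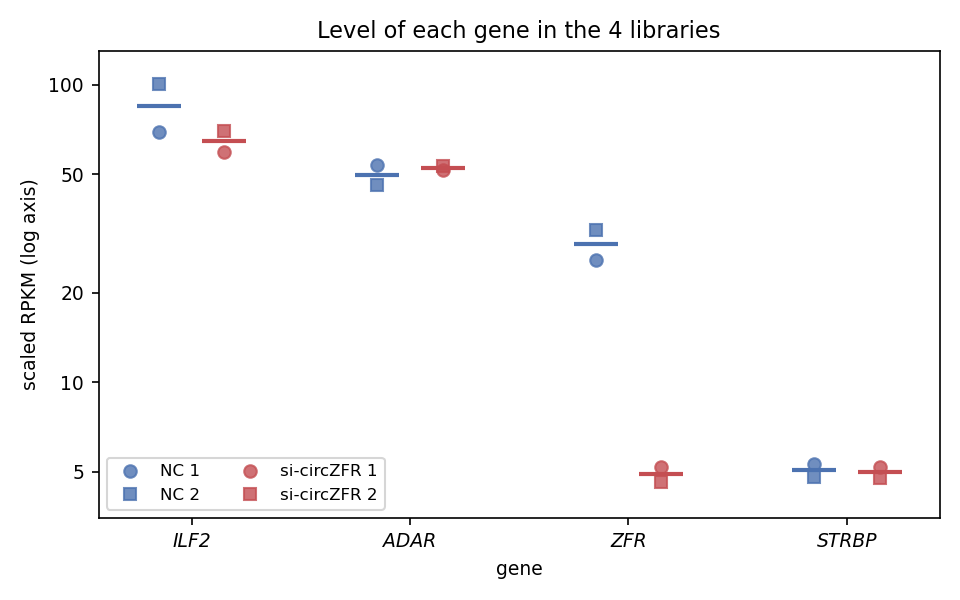
Level of each gene as scaled RPKM (log axis) in NC (blue) and si-circZFR (red), with circles for replicate 1, squares for replicate 2 and bars for the group means. *ZFR* lies between 25.8 and 32.5 in NC and between 4.61 and 5.21 in si-circZFR, beside *STRBP*. For *ILF2*, *STRBP* and *ADAR* the NC and si-circZFR points overlap. Those of *ILF2* spread from 59.4 in si-circZFR 1 to 100.6 in NC 2.

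*ILF2* encodes NF45, which lacks a double-stranded RNA-binding domain of its own and serves as the pairing partner of the family. The gene lies on the minus strand of chr1:153661788-153671028 (GRCh38, as for the genes that follow). It was the most abundant of the 4 genes, with 68.3 and 89.2 RPKM in NC 1 and NC 2 and 61.0 and 77.6 RPKM in si-circZFR 1 and si-circZFR 2. The groups overlapped after scaling, with si-circZFR 2 (69.7) just above NC 1 (69.2), and NC 2 stood highest (100.6). NC had a scaled level of 84.9 ± 22.2 (SD, n = 2), against 64.6 ± 7.34 (SD, n = 2) after si-circZFR. The log2FC was -0.37 (standard error 0.24, 95% confidence interval -0.96 to 0.22, FDR = 0.408 by limma), and the interval includes 0. The difference was -0.64 without NC 1 and -0.10 without NC 2. The rows for the pseudogenes of *ILF2* took few reads, 6, 3, 1 and 2 for *ILF2P1* and none for *ILF2P2*.

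*ADAR* encodes the adenosine deaminase ADAR1, one form of which is induced by interferon. The gene, on the minus strand of chr1:154581695-154628013, had 53.0 and 40.8 RPKM in NC 1 and NC 2 and 53.2 and 59.4 RPKM in si-circZFR 1 and si-circZFR 2. The low value of NC 2 was the only one apart, and after scaling the groups overlapped, at 49.8 ± 5.43 (SD, n = 2) and 52.6 ± 1.05 (SD, n = 2). The log2FC was 0.08 (standard error 0.17, 95% confidence interval -0.35 to 0.51, FDR = 0.814 by limma). Within each library the RPKM of *ILF2* was 1.29, 2.19, 1.15 and 1.31 times that of *ADAR*, so that NC 2 stood apart and the groups overlapped.

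*STRBP* encodes SPNR, a protein first described in the testis, from the minus strand of chr9:123109500-123268586. It was the least abundant of the 4 genes in NC, with 5.24 and 4.25 RPKM in NC 1 and NC 2 and 5.32 and 5.30 RPKM in si-circZFR 1 and si-circZFR 2, from 350 to 403 reads per library. NC had a scaled level of 5.05 ± 0.365 (SD, n = 2), against 4.97 ± 0.294 (SD, n = 2) after si-circZFR. Its ratio to *ADAR* lay between 0.0893 and 0.104 in the 4 libraries. The groups overlapped, with a log2FC of -0.02 (standard error 0.16, 95% confidence interval -0.41 to 0.38, FDR = 0.956 by limma). *ZFR2*, a relative of *ZFR*, was listed at 0.0527 RPKM in NC 1 and at 0 in the other libraries, and the pseudogene *ZFRP1* at 0 in all 4.

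The mean levels of these genes in NC ran from *ILF2* (84.9) through *ADAR* (49.8) and *ZFR* (29.1) to *STRBP* (5.05), and in this order no neighbours overlapped in NC. *ZFR* exceeded 84.2% of the genes tested in NC and 39.0% in si-circZFR, where its level (4.91) and that of *STRBP* (4.97) differed by less than their spread. Within libraries, which no scaling affects, the ratio of *ZFR* to *STRBP* was 4.86 and 6.78 in NC and 1.01 and 0.968 in si-circZFR. The ratio of *ZFR* to *ILF2* was 0.373 and 0.323 in NC and 0.0877 and 0.0661 in si-circZFR. Relative to the mean log2 level of *ILF2*, *STRBP* and *ADAR* in the same library, *ZFR* was at -0.11 and 0.15 in NC and at -2.12 and -2.32 in si-circZFR. The difference between the groups was -2.24 on the log2 scale (exact permutation p = 0.333, again the smallest possible).

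**Figure D3:**
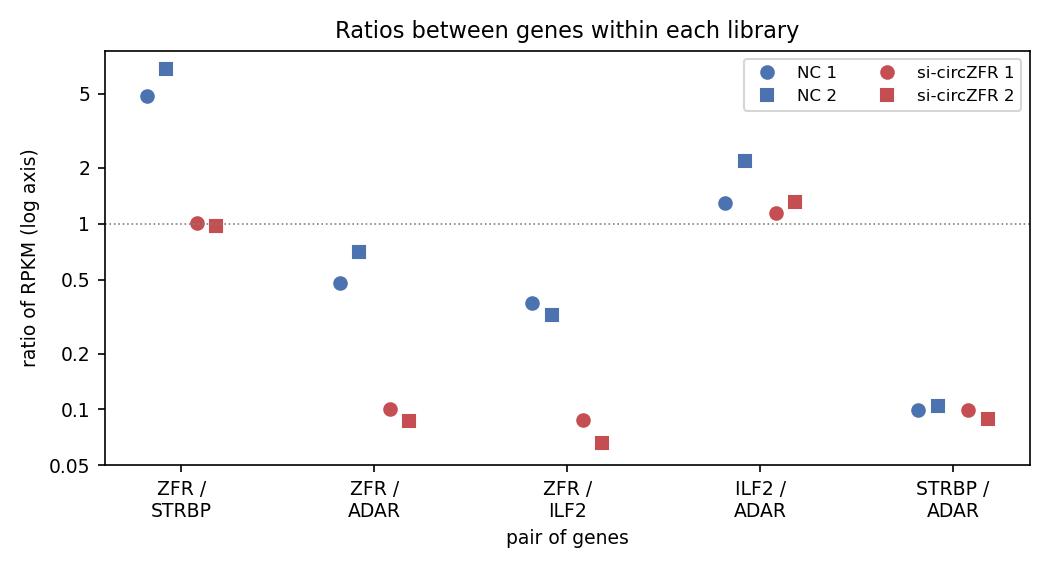
Ratio of the RPKM of gene pairs within each library (log axis), in NC (blue) and si-circZFR (red), with circles for replicate 1 and squares for replicate 2. Each ratio with *ZFR* on top is lower in both si-circZFR libraries than in both NC libraries, the ratio of *STRBP* to *ADAR* stays between 0.0893 and 0.104, and *ILF2* to *ADAR* is highest in NC 2 at 2.19.

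NC 2 differed from NC 1 in a way that touched these genes unequally. Across 13885 genes, the log2 difference between NC 2 and NC 1 was lower for longer genes (Spearman correlation -0.336, a description across genes of the same 2 libraries). Between the si-circZFR libraries this correlation was 0.0205. The trend was also present between the groups, where the difference of si-circZFR from NC was higher for longer genes, with correlations of 0.152 and 0.135 against NC 1 and of 0.349 and 0.330 against NC 2. *ILF2*, the shortest of the 4 with 1852 bases in its main transcript, was 0.53 higher on the log2 scale in NC 2 than in NC 1. *STRBP* and *ADAR*, with 6451 and 6610 bases, were lower in NC 2 by 0.12 and 0.22, and *ZFR* was 0.32 higher. The part of the length trend in the differences of these genes was not tested, and *ZFR* had a log2FC of -2.19 without NC 2.

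Other proteins with double-stranded RNA-binding domains were examined as a list of 16 genes, of which 12 were tested. None passed by limma, and none passed under any alternative, limma-voom included. An unadjusted p under 0.05 was found for 2 of the 12, against 21.4% of all genes tested. The median log2FC was -0.14, with 9 lower and 3 higher, against -0.0085 for all genes tested, and it ran from -0.19 to -0.086 with 1 library left out. For 5 of them the si-circZFR values lay wholly below the NC values (28.9% of all genes tested), and for 1 wholly above (27.0% of all genes tested). Without scaling between libraries, 6 were lower and 6 higher, and the list's median was then -0.11 relative to that of all genes, which moved to 0.15.

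The smallest p in this list belonged to *DROSHA*, the nuclease that releases microRNA hairpins. It had 10.6 and 7.11 RPKM in NC 1 and NC 2 and 17.1 and 15.6 RPKM in si-circZFR 1 and si-circZFR 2, with no overlap between the groups (log2FC 0.66, standard error 0.20, FDR = 0.154 by limma). Its partner *DGCR8* had a log2FC of -0.01 and *DICER1*, which cuts the hairpins further, of 0.13. The Dicer partners *TARBP2* and *PRKRA* had values of -0.43 (standard error 0.15, FDR = 0.191 by limma) and -0.41 (standard error 0.18, FDR = 0.261 by limma). The RNA helicase *DHX9*, abundant at 54.2 to 65.2 RPKM, was at -0.33 (standard error 0.17, FDR = 0.321 by limma). On the log2 scale *DROSHA* was 0.38 lower in NC 2 than in NC 1, and *PRKRA* was 0.33 higher. The part of the length trend in the differences of the genes in this list was not tested. Among the relatives of *ADAR*, *ADARB1* lay between 0.400 and 1.39 RPKM and was not tested, and *ADARB2*, *ADAD1* and *ADAD2* were listed at 0 in every library.

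A list of 22 genes for sensing double-stranded RNA and for the interferon response was taken along, because ADAR1 edits the RNA that these sensors read. Of 17 tested, none passed by limma or under any alternative, and 2 had an unadjusted p under 0.05, again against 21.4% of all genes tested. The median log2FC was 0.12, with 13 higher and 4 lower. It was 0.029 without NC 1, 0.22 without si-circZFR 2, 0.19 with a pseudocount of 0.1 and 0.20 by limma-voom. Without scaling it was 0.27, where the median of all genes was 0.15. Relative to all genes the list's median was then 0.12, against 0.13 with scaling. For 5 genes the si-circZFR values lay wholly above the NC values, as for 27.0% of all genes tested, and for 2 wholly below, as for 28.9%. The antiviral GTPase *MX1* had 2.07, 1.91, 3.56 and 4.62 RPKM (log2FC 0.62, standard error 0.17, FDR = 0.144 by limma). The transcription factors *IRF7* and *IRF1* had log2FC values of 0.46 and -0.28 (FDR = 0.252 and 0.337 by limma). The RNA sensors *IFIH1* and *DDX58* had values of 0.09 and 0.19, and the kinase *EIF2AK2*, counted in the previous list, -0.01. *IFNB1*, the gene of interferon beta, was listed at 0 in all 4 libraries.

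**Figure D4:**
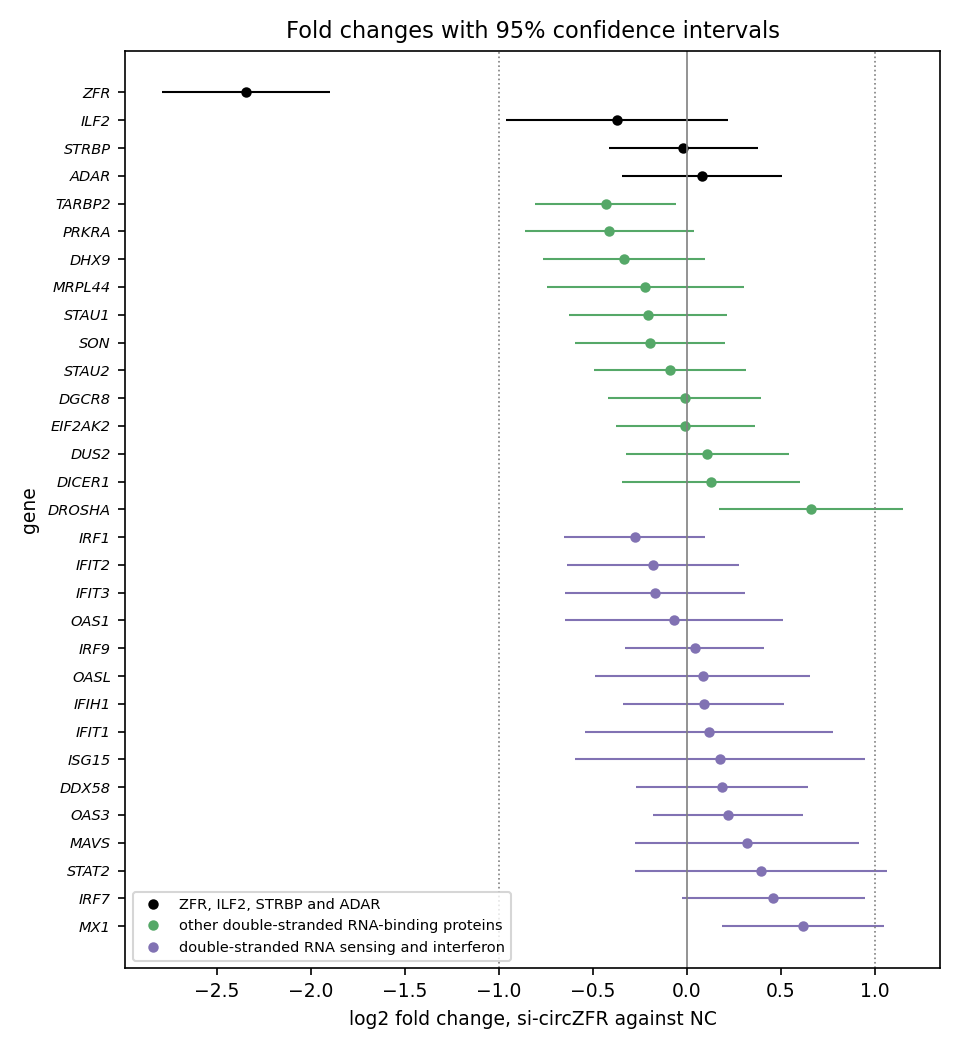
Log2 fold change of si-circZFR against NC with 95% confidence intervals from limma for the 4 genes (black), the tested double-stranded RNA-binding proteins (green) and tested sensing and interferon genes (purple, not all shown), with dotted lines at an absolute log2 fold change of 1. *ZFR*, at -2.34, is the only plotted gene whose interval lies wholly beyond a dotted line.

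Of the 5 neighbours of *ZFR* on chromosome 5, 4 were tested and none passed by limma. *MTMR12*, the nearest on the *GOLPH3* side, had 6.21, 6.26, 7.71 and 8.74 RPKM (log2FC 0.18, standard error 0.16, FDR = 0.533 by limma). *SUB1*, the nearest on the other side, was at -0.31 (standard error 0.25, FDR = 0.499 by limma), and *GOLPH3* at -0.18 (standard error 0.17, FDR = 0.557 by limma). *NPR3*, the natriuretic peptide clearance receptor, lay next to *SUB1* and had 1.63, 1.51, 3.96 and 5.53 RPKM, higher in both si-circZFR libraries (log2FC 1.01, standard error 0.19, FDR = 0.0829 by limma). For *NPR3* and *MTMR12*, 2 of the 4 tested, the si-circZFR values lay wholly above the NC values, as for 27.0% of all genes tested. None of the 4 lay wholly below, as 28.9% of all genes tested did. *PDZD2* was at or near 0 throughout.

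The genes whose profile over the 4 libraries lay nearest to that of *ZFR* (Euclidean distance between log2 values, each gene centred on its own mean) were *RPL7AP20*, *RPL21P16*, *CYP2S1*, *RHOG* and *H3F3AP6*, at distances of 0.417 to 0.492. Of these, *RPL7AP20*, *RPL21P16* and *H3F3AP6* carry the symbols of pseudogenes, whose reads can come from near-identical copies. The monooxygenase gene *CYP2S1* had 38.1, 33.6, 10.3 and 8.33 RPKM (log2FC -2.02, standard error 0.19, FDR = 0.0608 by limma). *RHOG*, a small GTPase, had 41.6, 36.3, 11.6 and 8.01 RPKM (log2FC -2.08, standard error 0.23, FDR = 0.068 by limma). None of the 5 passed, with FDR from 0.0608 to 0.0686.

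**Figure D5:**
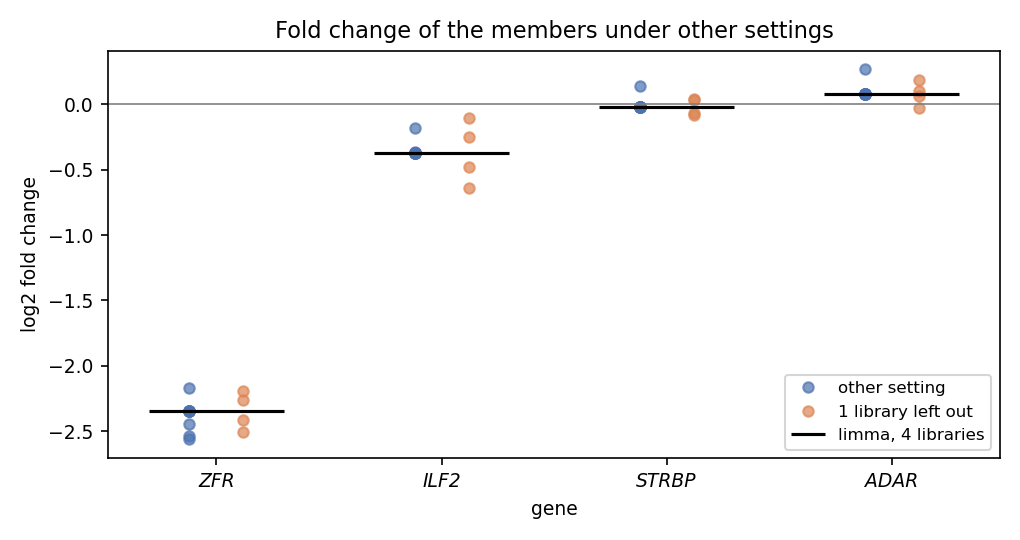
Log2 fold change of the 4 genes by limma with all 4 libraries (black lines), under other settings (blue) and with 1 library left out (orange). *ZFR* stays between -2.56 and -2.17, *ILF2* between -0.64 and -0.10, and *STRBP* and *ADAR* lie on both sides of 0.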

How the data were processed

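NC and si-circZFR libraries were grouped by their sample titles. The authors prepared Ion Total RNA-Seq libraries, aligned the reads (hg38 in the article, GRCh37 in the submitters' processing notes) and deposited 1 RPKM value per gene and library. The aligner, annotation and counting rules are not given in the sources used here, nor whether strand was used.

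Whole reads (tolerance 0.02) were recovered by a search for each gene's length, for 99.8% of 24289 genes above 0, with totals of 11040050 to 12816868 reads per library. The shortest length that fitted was taken for each gene, so its reads are the fewest possible. RNA genes of known short length gave whole reads in 96.7% to 97.7% of their values. The library totals were set with these same RNA genes, so that share is not an independent check.

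RPKM values were scaled by trimmed means (factors 0.886 to 1.11), and the 13885 genes that reached 1 RPKM in 2 or more libraries were fitted by limma with a trended prior variance on log2(value + 1). Alternatives covered the scaling, filter, pseudocount, variance trend, replicate block, limma-voom and each library left out. Scripts were tested on simulated data. The genes and lists were chosen with earlier results of these data known. Named genes were those of the fixed lists that passed or had the 4 smallest p, those at 0, the neighbours of *ZFR* and the 5 nearest profiles, and a few further list members were added after their values were seen. Some genes that this rule covers are not reported here. The ratios to *ADAR* of *ILF2* and *STRBP* were also chosen after the values were seen. Coordinates and transcripts came from GENCODE release 44 (GRCh38). Oligonucleotide sequences came from the study's list. Software comprised matplotlib 3.10.9, scipy 1.17.1, pandas 2.3.3 and numpy 2.4.6 under Python 3.11.15, and limma 3.58.1 under R 4.3.3.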

Additional observations from a re-analysis of the deposited data

How the results depend on the processing

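The log2FC of *ZFR* was negative under all alternatives, but it did not pass without a filter on low values (-2.34, FDR = 0.227), with a pseudocount of 0.1 (-2.54, FDR = 0.0617) or 0.5 (-2.45, FDR = 0.0579), and with limma without a trend (-2.34, FDR = 0.0645). With 1 library left out it ran from -2.51 to -2.19, and it lost the call without NC 2 (FDR = 0.144). *STRBP* turned to 0.14 without scaling between libraries, which is -0.0096 relative to the median of all genes, and ran from -0.081 to 0.042 with 1 library left out (0.042 without NC 1, 0.035 without si-circZFR 2). *ADAR* ran from -0.029 (without NC 2) to 0.19 with 1 library left out. *ILF2*, *STRBP* and *ADAR* passed under none of the alternatives run. *ZFR* relative to the other 3 genes ran from -2.46 to -2.11.

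The number of genes that passed, 8 by limma, was 0 without a filter and without a trend, 174 with a filter of 1 CPM, 2 with either pseudocount, 17 with the replicate block and 278 by limma-voom on recovered reads. With 1 library left out it ran from 0 (without NC 2) to 1020 (without NC 1), with 83 and 15 without si-circZFR 1 and si-circZFR 2. A group left with 1 library was assumed to vary like the other. The differences between replicates in the NC and si-circZFR groups were little correlated across genes (0.0696). Whether libraries of the same replicate number were prepared together cannot be told from this value. With the replicate block *ZFR* had FDR = 0.0358 by limma. Since each group held 2 libraries, its spread came from 1 difference between replicates.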
